A study of Arabidopsis thaliana with 14 samples.

Results

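DNA methylation was examined at 8 genes of the RNA-directed DNA methylation (RdDM) pathway of Arabidopsis thaliana: NRPD1 (AT1G63020), RDR2 (AT4G11130), DCL3 (AT3G43920), AGO4 (AT2G27040), NRPE1 (AT2G40030), DRM2 (AT5G14620), SUVH2 (AT2G33290) and SUVH9 (AT4G13460). They were chosen by name, for their place in the pathway, with earlier results of these data known. Every 300-nt window that overlapped one of these genes or the 2 kb on either side was taken, which gave 399 of 595735 nuclear windows and 8 of 27432 protein-coding nuclear genes. Windows start every 200 nt, so neighbouring windows share calls.

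RdDM directs cytosine methylation to sequences that match small RNAs. RNA polymerase IV makes short transcripts that RDR2 copies into double strands and DCL3 cuts into small interfering RNAs, which AGO4 carries. RNA polymerase V makes scaffold transcripts at the target, and the DNA methyltransferase DRM2 then methylates cytosines there in the CG, CHG and CHH contexts (H is any base but G). SUVH2 and SUVH9 are related proteins that bind methylated DNA and bring polymerase V to it. CG methylation within transcribed genes is a separate matter in plants, kept by the maintenance methyltransferase MET1.

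The libraries came from whole-genome bisulfite sequencing, in which unmethylated cytosines are read as thymine, of embryo and endosperm dissected 6 days after pollination. Endosperm, which feeds the embryo, receives more maternal than paternal genomes. Each of 7 crosses, written female first, gave 1 endosperm and 1 embryo library: the F1 hybrids Cvi x Col, Col x Cvi, Cvi x Ler and Ler x Cvi, and the selfed strains Cvi x Cvi, Ler x Ler and Col x Col. The labels name no mutation and no treatment, and each sample pooled seeds of many siliques. With 1 library in each of the 14 groups there is no replicate error, and every test below compares libraries, not strains or tissues.

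4 upstream windows are printed because the strain and tissue differences described below lie in them. They were read from the TAIR10.1 assembly on the strand of the gene, and the CG dinucleotides are in capitals. None overlaps an annotated gene. The SUVH9 window (chr4:7827201-7827500, minus strand) has 5 CG dinucleotides, the NRPE1 window (chr2:16713601-16713900, plus strand) 5, the DCL3 window (chr3:15752801-15753100, plus strand) 7 and the NRPD1 window (chr1:23363401-23363700, minus strand) 10. These are the Col reference bases. Bases that differ in Ler or Cvi were not compared.
SUVH9: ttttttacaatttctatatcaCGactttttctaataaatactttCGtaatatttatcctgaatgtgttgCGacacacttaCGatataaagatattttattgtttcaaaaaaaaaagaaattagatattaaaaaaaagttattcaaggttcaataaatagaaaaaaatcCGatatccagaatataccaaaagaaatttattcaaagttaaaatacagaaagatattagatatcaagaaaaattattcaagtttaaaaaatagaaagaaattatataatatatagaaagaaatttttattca
NRPE1: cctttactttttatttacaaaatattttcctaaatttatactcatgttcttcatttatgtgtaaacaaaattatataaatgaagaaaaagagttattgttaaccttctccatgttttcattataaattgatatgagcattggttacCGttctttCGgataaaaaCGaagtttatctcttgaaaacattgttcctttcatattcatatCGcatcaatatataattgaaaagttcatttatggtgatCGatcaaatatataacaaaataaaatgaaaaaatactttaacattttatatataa
DCL3: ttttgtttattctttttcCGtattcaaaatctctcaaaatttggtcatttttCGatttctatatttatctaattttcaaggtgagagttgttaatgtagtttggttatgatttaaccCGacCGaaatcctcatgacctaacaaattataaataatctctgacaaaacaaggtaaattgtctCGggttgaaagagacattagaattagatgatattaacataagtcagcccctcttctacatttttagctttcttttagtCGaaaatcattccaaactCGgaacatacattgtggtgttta
NRPD1: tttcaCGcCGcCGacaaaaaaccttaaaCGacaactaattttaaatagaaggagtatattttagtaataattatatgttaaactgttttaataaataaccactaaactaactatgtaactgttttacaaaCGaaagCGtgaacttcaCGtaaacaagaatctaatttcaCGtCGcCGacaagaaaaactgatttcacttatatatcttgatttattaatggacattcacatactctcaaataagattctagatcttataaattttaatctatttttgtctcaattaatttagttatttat

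Depth set which windows could be compared. The selfed Cvi, Ler and Col embryos had 8096343, 35149159 and 41029294 CG calls over nuclear windows, and the libraries spanned 214040 (Col x Col, endosperm) to 62566453 (Ler x Cvi, embryo). Endosperms of Cvi x Col, Col x Cvi, Ler x Cvi and Col x Col had a median of 6 calls in a CG window, and few of their windows at the 8 genes could be tested. In 10 libraries with chloroplast calls, which should be unmethylated, 0.024% to 0.894% of calls were methylated. The Cvi x Ler embryo stands apart: in 187 of 294 blocks of 400 kb (63.6%) its CG profile matched the other embryos a second time at another position, against 0% to 3.72% of blocks in the other 13 libraries. In the blocks that hold the 8 genes the Cvi x Ler embryo correlated with the mean of the selfed embryos at 0.342 to 0.483 at its own position. The Ler x Cvi embryo correlated at 0.875 to 0.918 (windows within a block, which share their library). In the Cvi x Ler embryo the second matches were not spread over all these blocks. A second match was found in the blocks of AGO4, SUVH2, NRPE1, SUVH9 and DRM2, and not in those of NRPD1, DCL3 and RDR2. Its correlation at its own position was still only 0.342 at NRPD1, 0.462 at DCL3 and 0.343 at RDR2. Its calls at these genes were thus not shown to be in place. Its values are given with that limit, and comparisons that rest on it are given apart.

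Strain differences were called between selfed embryos, window by window, by a two-sided Fisher's exact test that set methylated against unmethylated calls, with Benjamini-Hochberg adjustment over all nuclear windows tested. A call needed an adjusted p under 0.01 and a difference of at least 35 percentage points in CG and CHG or 10 in CHH, in windows with at least 15 calls (CHH: 50) in both libraries. Each percentage below is the share of calls that were methylated, and Wilson 95% intervals cover counting error only. The intervals, the upper limits given where no call was methylated and the Fisher tests treat each call as independent. Calls that share a read or a cytosine are not, so intervals can be too narrow and p-values too small. The cytosines covered were not matched between libraries.

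In CG, a larger share of the windows of the 8 genes was called between strains than of all nuclear windows, a contrast that was not tested, and Cvi was mostly the lower strain. Against Col, Cvi was lower at 24 (18.8%) and higher at 12 (9.38%) of 128 windows tested, together 28.1%, where 9.82% of all nuclear windows tested were called, 8.20% lower and 1.63% higher. Against Ler, Cvi was lower at 27 and higher at 4 of 121 windows (25.6%, against 9.71% of all windows, 7.94% lower and 1.77% higher). Windows of 1 gene are not independent of each other: 8 of the 12 windows higher in Cvi than in Col belong to SUVH9. Ler was higher than Col at 27 and lower at 16 of 337 windows (12.8%, against 8.29% of all windows, 4.04% higher and 4.25% lower). At least 1 window was called in 7, 7 and 8 of the 8 genes in Cvi against Col, Cvi against Ler and Ler against Col, while 50.1%, 48.4% and 70.1% of protein-coding genes had one. A gene with more tested windows has more chances of a call, and these shares were not matched for gene length or windows tested. With 2 times the call minimum the CG calls were 14 for Cvi against Col and 11 for Cvi against Ler. Fewer windows could be tested at that minimum, as the Cvi embryo had a median of 16 calls in a CG window. The share of all windows called at that minimum was not taken, so these counts do not show whether the excess stayed.

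The counts were also taken by part of the gene, with no test between parts. Within gene bodies Cvi was lower than Col at 14 and higher at 3 of 61 windows, where over the bodies of all protein-coding genes 11.1% of windows were lower and 1.52% higher. Against Ler it was lower at 17 and higher at 2 of 59 body windows (all genes 11.1% lower, 1.49% higher). Upstream of the genes, Cvi was lower than Col at 3 and higher at 4 of 35 windows (all genes 6.07% lower, 1.58% higher), and lower than Ler at 3 and higher at 2 of 33 (5.70% lower, 1.74% higher). Downstream, Cvi was lower than Col at 7 and higher at 5 of 32 windows (7.52% lower, 1.60% higher), and lower than Ler at 7 and higher at none of 29 (7.08% lower, 1.72% higher). Non-CG calls were few and sat in few genes. In CHG, Cvi was higher than Col at 3 of 160 windows and lower at none, where 1.94% of all windows were called (0.931% higher, 1.01% lower). Ler was likewise higher than Col at 3 of 361 CHG windows and lower at none (1.26% of all windows, 0.496% higher and 0.764% lower), and all these windows were downstream of SUVH9. Cvi was lower than Ler at 2 of 153 CHG windows, both downstream of RDR2, and higher at none (1.70% of all windows, 0.751% lower and 0.947% higher).

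In CHH, Cvi was higher than Col at 8 and lower at 2 of 215 windows (4.65%, against 2.68% of all windows, 1.31% higher and 1.37% lower). Against Ler, Cvi had 6 CHH windows higher and 1 lower of 215 (3.26%, against 2.22%, 1.52% higher and 0.703% lower). Ler and Col had 2 CHH windows in each direction of 393 (1.02%, against 2.22%, 0.566% higher and 1.65% lower). The windows higher in Cvi were at SUVH9, DCL3, SUVH2 and NRPD1, and those higher in Col were at NRPE1, RDR2 and SUVH9.

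**Figure D1:**
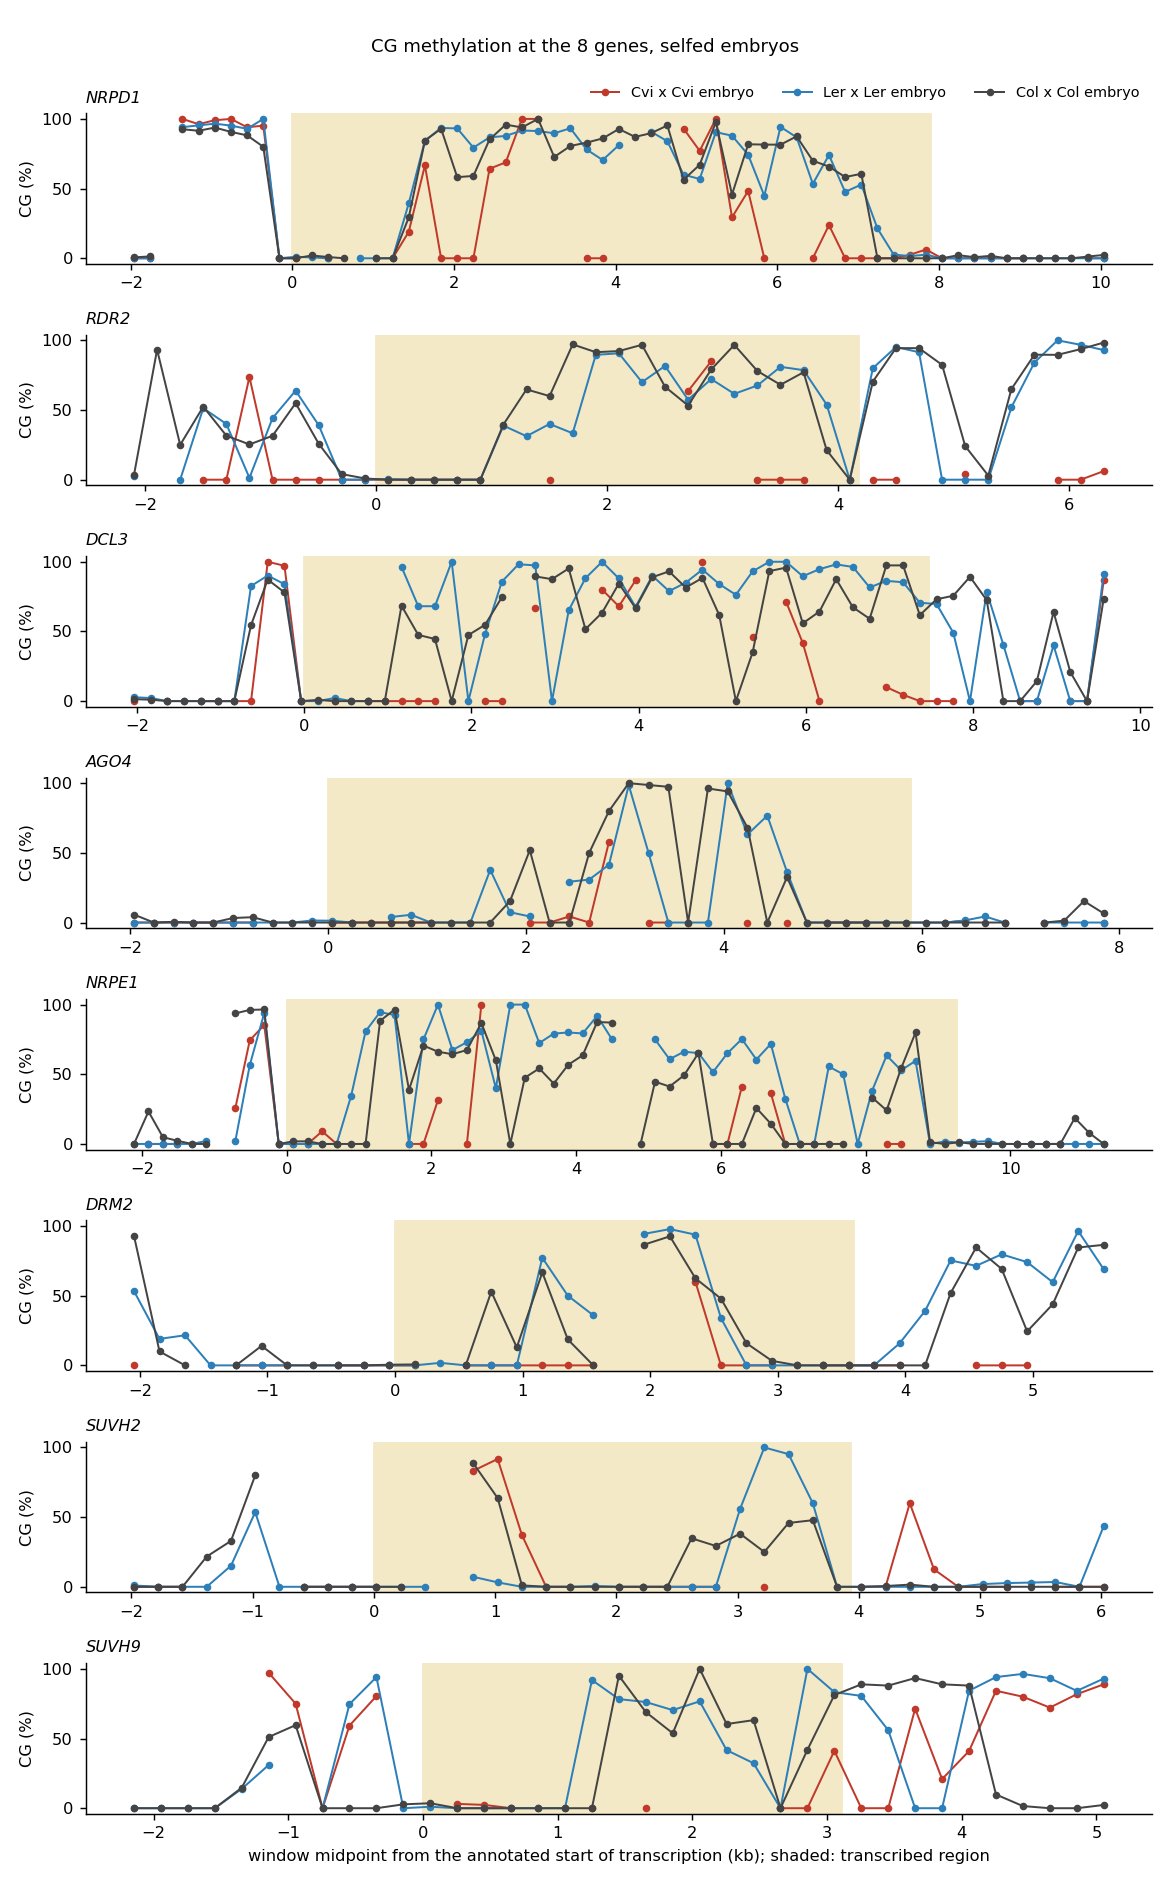
CG methylation (%) of each 300-nt window along the 8 genes and 2 kb on either side, in selfed Cvi, Ler and Col embryos; the x axis is the window midpoint in kb from the start of transcription and the transcribed region is shaded. Cvi lies at or near 0 over much of the gene bodies and downstream of RDR2 and DRM2, the 3 strains share a methylated block upstream of NRPD1, and Col lies at 0% to 9.84% in blocks before and after SUVH9 where Cvi and Ler are methylated.

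**Figure D2:**
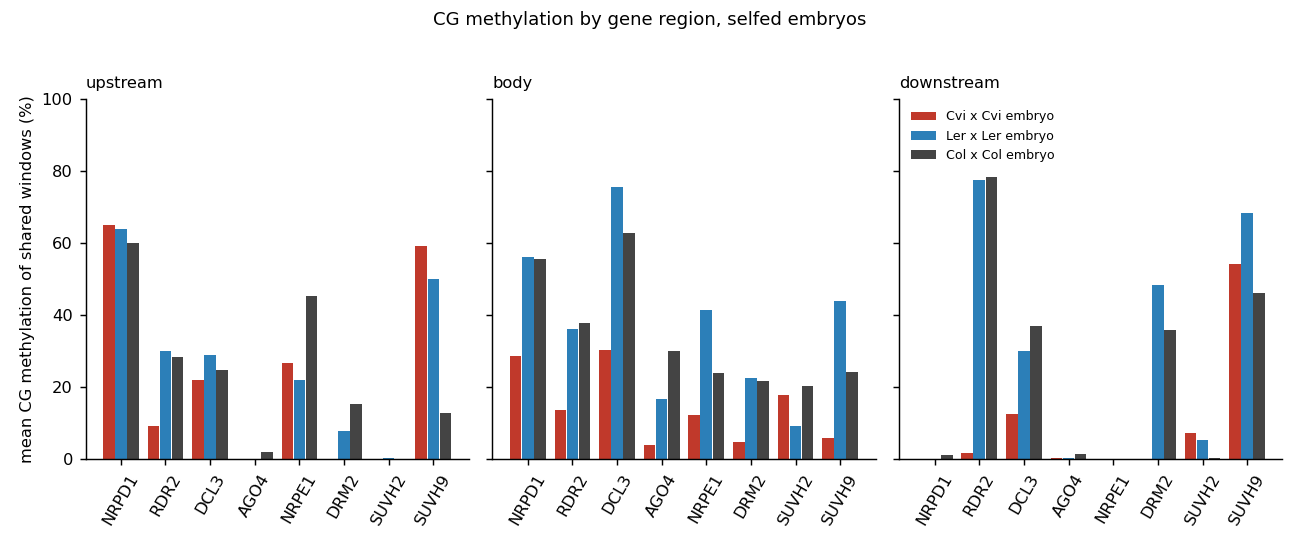
Mean CG methylation (%) over the windows that the selfed Cvi, Ler and Col embryos share, upstream of, within and downstream of each gene (bars; 1 library each, so no error bars). Cvi is the lowest of the 3 in 7 of the 8 gene bodies, and is not the lowest upstream of NRPD1, NRPE1 or SUVH9.

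NRPD1 encodes the largest subunit of RNA polymerase IV. Its transcribed region (chr1:23354685-23362589, minus strand, 7905 nt) averaged 28.5% CG methylation in Cvi, 56.0% in Ler and 55.5% in Col over 28 shared windows, where the median protein-coding gene had 0%, 2.07% and 2.81%. Cvi thus fell 27.0 points below Col in the body of NRPD1, a fall exceeded in 8.14% of protein-coding genes. The upstream 2 kb gave no such gap, at 64.9% in Cvi, 63.8% in Ler and 59.9% in Col over 9 windows.

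The largest strain difference at NRPD1 was in a coding exon 1839 nt into the gene (chr1:23360601-23360900). In the selfed embryos 0 of 22 calls were methylated in Cvi (which allows up to 13.6%), against 93.5% of 123 in Ler (Wilson 95% interval 87.7 to 96.7) and 93.0% of 100 in Col (86.3 to 96.6). The difference passed Fisher's exact test against both (adjusted p = 8.43e-18 against Ler and 8.82e-17 against Col). The hybrid embryos stood between the parents at this window, at 64.7% of 17 calls in Cvi x Col, 69.5% of 164 in Col x Cvi and, in Ler x Cvi, 76.9% of 229. Of the NRPD1 windows tested, Cvi was lower at 6 and higher at 1 of 25 against Col, and lower at 7 of 24 against Ler. The 1 window higher in Cvi, 4839 nt into the gene, had 93.1% of 29 calls methylated in Cvi and 56.3% of 71 in Col.

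Upstream of NRPD1 the methylated block ran over 6 windows with midpoints from -1361 to -361 nt. Its CG levels were 94.0% to 100% in Cvi, 92.9% to 100% in Ler and 80.0% to 93.8% in Col, and no CG window there was called between strains. The hybrid embryos had 87.0% to 100% in Cvi x Col, 76.2% to 95.7% in Col x Cvi and 89.8% to 96.6% in Ler x Cvi. CHH calls were methylated in the same block, and 1 window differed: at -1161 nt (chr1:23363601-23363900) 17.6% of 261 calls were methylated in Cvi, 6.19% of 226 in Ler and 12.7% of 761 in Col, with adjusted p = 0.00567 for Cvi against Ler by Fisher's exact test. Col hybrids with Cvi had 21.1% of 610 CHH calls (Cvi x Col) and 15.0% of 452 (Col x Cvi) at that NRPD1 window, and Ler x Cvi had 7.45% of 443.

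RDR2 encodes the RNA-dependent RNA polymerase that copies polymerase IV transcripts. Its gene (chr4:6780449-6784632, plus strand, 4184 nt) showed the widest strain gap of the 8 on its downstream side, where 6 shared windows averaged 1.67% CG methylation in Cvi, 77.5% in Ler and 78.4% in Col. The Cvi minus Col difference was -76.8 points, and only 0.317% of protein-coding genes had a lower one. In the body of RDR2 the means were 13.5% in Cvi, 36.1% in Ler and 37.8% in Col.

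At 4501 nt, just past the end of RDR2 (chr4:6784801-6785100), 0 of 61 CG calls were methylated in Cvi (which allows up to 4.92%), against 95.2% of 83 in Ler and 94.4% of 108 in Col. The widest gap was 6101 nt from the start (chr4:6786401-6786700), a window that reaches the long non-coding RNA gene AT4G05850: 0 of 19 CG calls in Cvi (up to 15.8%), 96.8% of 93 in Ler (Wilson 95% interval 90.9 to 98.9) and 93.7% of 95 in Col (86.9 to 97.1). Fisher's exact test gave adjusted p = 8.18e-17 for Cvi against Ler and 3.84e-15 for Cvi against Col. The hybrid embryos of Cvi x Col, Col x Cvi and Ler x Cvi were intermediate there, with 35% of 40 calls in Cvi x Col, 45.5% of 132 in Col x Cvi and, in Ler x Cvi, 62.5% of 120.

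The same RDR2 window was unmethylated in CHG in Cvi (0 of 17 calls, up to 17.6%), against 62.3% of 69 in Ler and 40.4% of 47 in Col (adjusted p = 0.000165 for Cvi against Ler, Fisher's exact test). In the next window, at 6301 nt, 0.341% of 293 CHH calls were methylated in Cvi, 4.33% of 600 in Ler and 10.6% of 341 in Col (adjusted p = 1.81e-07 for Cvi against Col, Fisher's exact test). Cvi thus had the lowest share in all 3 contexts at these windows downstream of RDR2. The CHG difference from Col and the CHH difference from Ler were not called. The upstream windows of RDR2 lie mostly inside the neighbouring gene AT4G11120 and included 1 window where Cvi was the high strain: at -1099 nt, 73.7% of 19 CG calls were methylated in Cvi, 1.30% of 77 in Ler and 25.3% of 83 in Col.

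DCL3 encodes the Dicer-like enzyme that makes the small RNAs of the pathway. Its body (chr3:15753387-15760859, plus strand, 7473 nt) averaged 30.3% CG methylation in Cvi, 75.6% in Ler and 62.6% in Col over 19 windows. The widest CG difference was in a coding exon 6163 nt into DCL3 (chr3:15759401-15759700), with 0 of 15 calls methylated in Cvi (up to 20.0%), 94.7% of 152 in Ler and 64.3% of 112 in Col (adjusted p = 2.88e-14 for Cvi against Ler, Fisher's exact test). The Cvi library only just met the 15-call minimum there. Ler and Col also differed within DCL3, for example at 5163 nt, where 76.3% of 59 calls were methylated in Ler and 0 of 29 in Col (up to 10.3%).

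Just before DCL3, Cvi was the high strain in CHH. In the window at -437 nt printed above (chr3:15752801-15753100), 47.5% of 61 CHH calls were methylated in Cvi (Wilson 95% interval 35.5 to 59.8), 2.66% of 751 in Ler (1.73 to 4.08) and 0.385% of 260 in Col (0.0679 to 2.15). Fisher's exact test gave adjusted p = 1.85e-20 against Ler and 3.24e-20 against Col. At -237 nt, the CHH shares were 22.2% of 316 calls in Cvi, 3.19% of 345 in Ler and 4.40% of 614 in Col.

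CG methylation in the same DCL3 windows was high in each strain and was not called between them: at -237 nt it was 97.1% of 34 calls in Cvi, 83.9% of 62 in Ler and 78.0% of 59 in Col. Hybrid embryos had much less CHH methylation than Cvi at -437 nt, with 12.5% of 24 calls in Cvi x Col (Wilson 95% interval 4.34 to 31.0), 6.95% of 446 in Col x Cvi (4.94 to 9.70) and 7.41% of 297 in Ler x Cvi (4.94 to 11.0). Another CHH window of DCL3, 9563 nt from its start and inside the neighbouring gene AT3G43930, had 14.7% of 177 calls in Cvi and 1.84% of 599 in Col (adjusted p = 4.4e-08, Fisher's exact test).

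**Figure D3:**
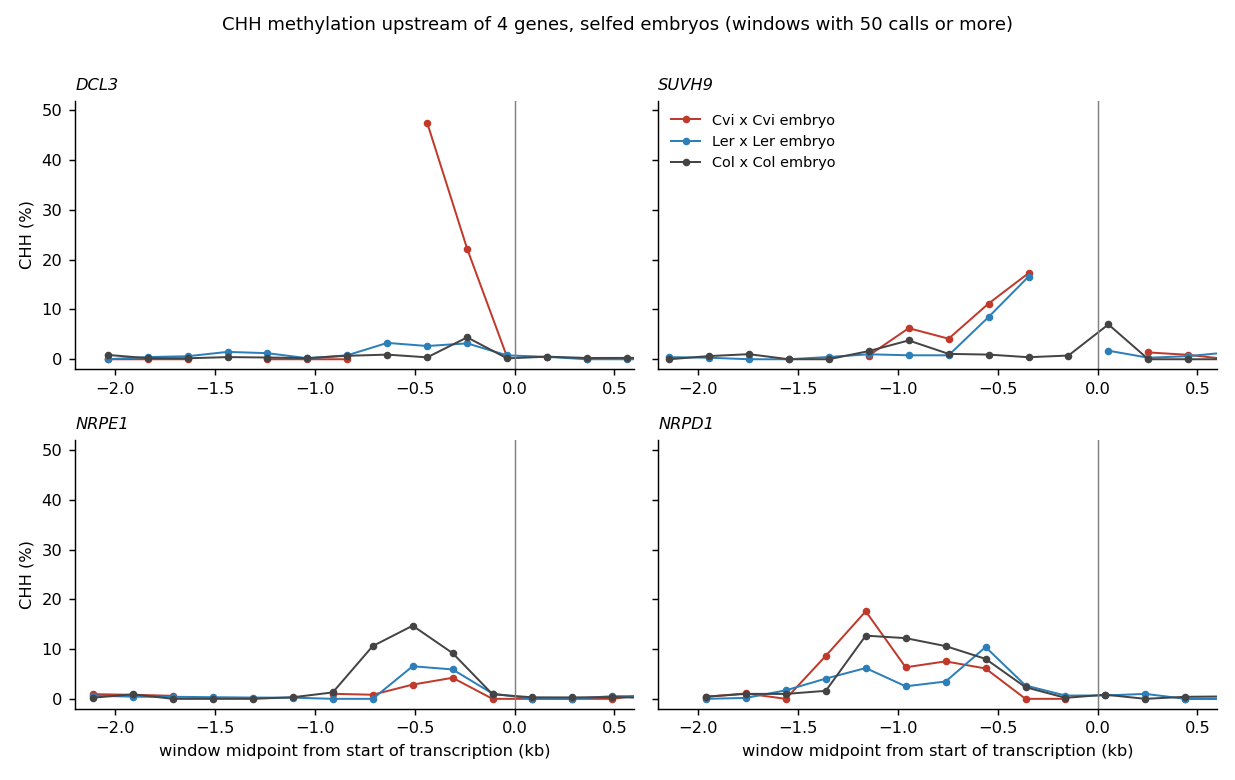
CHH methylation (%) of windows with at least 50 calls upstream of DCL3, SUVH9, NRPE1 and NRPD1 in selfed Cvi, Ler and Col embryos (x axis, window midpoint in kb from the start of transcription; vertical line, the start). Cvi reaches 47.5% before DCL3, Cvi and Ler reach 17.3% and 16.6% before SUVH9 where Col has 0.408%, and Col is the highest before NRPE1 at 14.7%.

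AGO4 encodes the Argonaute protein that carries the small RNAs. None of its 13 CG windows tested was called between Cvi and Col or between Cvi and Ler, and its only strain calls were between Ler and Col, with 5 windows lower and 1 higher in Ler of 41. Upstream of AGO4 no window exceeded 5.71% CG methylation in a selfed embryo. At 3441 nt into the gene, in a coding exon (chr2:11538801-11539100), 0 of 60 CG calls were methylated in Ler (which allows up to 5.00%) and 97.4% of 38 in Col (Wilson 95% interval 86.5 to 99.5), with adjusted p = 3.16e-24 by Fisher's exact test. Cvi had 0 of 10 calls there, too few for the test (up to 30.0%).

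The body of AGO4 (chr2:11536502-11542391, minus strand) averaged 3.89% CG methylation in Cvi, 16.6% in Ler and 29.9% in Col over 16 windows. At 3441 nt the Cvi x Col embryo had 88.9% of 18 calls methylated and the Col x Cvi embryo 35.6% of 59, 1 of the 3 CG windows at the 8 genes that were called between these reciprocal embryos. A window further into AGO4, at 4441 nt, ran the other way between Ler and Col, with 76.7% of 30 calls methylated in Ler and 0 of 30 in Col (up to 10.0%).

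NRPE1 encodes the largest subunit of RNA polymerase V. Before this gene (chr2:16714460-16723718, plus strand, 9259 nt) Col was the high strain. In the window at -710 nt printed above, 25.6% of 39 CG calls were methylated in Cvi (Wilson 95% interval 14.6 to 41.1), 2.08% of 48 in Ler (0.369 to 10.9) and 93.7% of 79 in Col (86.0 to 97.3). Fisher's exact test gave adjusted p = 1.01e-12 for Cvi against Col and 9.02e-26 for Ler against Col.

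The gap narrowed towards the start of NRPE1. At -510 nt, CG methylation was 74.4% of 39 calls in Cvi, 56.6% of 53 in Ler and 96.2% of 157 in Col, and at -310 nt it was 85.4% of 48 in Cvi, 94.0% of 134 in Ler and 96.5% of 310 in Col. In the hybrid embryos the -710 nt window had 58.9% of 107 calls methylated in Cvi x Col and 58.8% of 165 in Col x Cvi, against 8.51% of 141 in Ler x Cvi, the cross without a Col parent.

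CHH methylation before NRPE1 was also highest in Col. At -510 nt (chr2:16713801-16714100) 2.86% of 105 CHH calls were methylated in Cvi, 6.55% of 290 in Ler and 14.7% of 504 in Col (adjusted p = 0.00823 for Cvi against Col, Fisher's exact test). At -710 nt, Ler had 0 of 327 CHH calls methylated (up to 0.917%) and Col 10.6% of 529, also called. The Col hybrids also had CHH methylation at -510 nt of NRPE1, with 13.3% of 293 calls in Cvi x Col and 12.1% of 750 in Col x Cvi, and so did Ler x Cvi, with 12.4% of 450.

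Within NRPE1 the order was different, and Ler was the highest. Body CG methylation averaged 12.1% in Cvi, 41.2% in Ler and 23.7% in Col over 18 windows, and the Ler minus Col difference of 17.5 points was above that of 96.8% of protein-coding genes. At 5890, 6090 and 6290 nt into NRPE1, Ler had CG methylation where no call was methylated in Col: at 6090 nt, 0 of 22 calls were methylated in Cvi (up to 13.6%), 65.1% of 43 in Ler and 0 of 37 in Col (up to 8.11%). The Ler x Cvi embryo had 36.1% of 83 calls there, while Cvi x Col had 0 of 10 (up to 30.0%) and Col x Cvi 0 of 55 (up to 5.45%).

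DRM2 encodes the methyltransferase of the pathway. Its gene (chr5:4715105-4718704, minus strand, 3600 nt) had no CHG or CHH window called between strains. The largest CG difference lay past its end, 4754 nt from the start of transcription and inside the neighbouring gene AT5G14610 (chr5:4713801-4714100). There, 0 of 58 calls were methylated in Cvi (up to 5.17%), 79.7% of 74 in Ler (Wilson 95% interval 69.2 to 87.3) and 69.2% of 91 in Col (59.1 to 77.8), with adjusted p = 2.04e-21 for Cvi against Ler and 2.55e-18 against Col by Fisher's exact test. Hybrid embryos had 31.4% of 51 calls methylated in Cvi x Col, 19.8% of 116 in Col x Cvi and, in Ler x Cvi, 35.5% of 141.

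The DRM2 body averaged 4.62% CG methylation in Cvi, 22.4% in Ler and 21.6% in Col over 13 windows. It also held CHG methylation, averaging 11.9% in Cvi, 7.01% in Ler and 4.71% in Col over 15 windows. The SUVH2 body had CHG means of 6.07% in Cvi, 2.93% in Ler and 6.67% in Col over 13 windows, and the CHG means of the other 6 bodies were at most 0.906% (RDR2 in Col). At 1754 nt into DRM2, CHG shares were 33.3% of 18 calls in Cvi, 26.1% of 180 in Ler and 13.7% of 183 in Col, and hybrid embryos had 24.5% of 110 (Cvi x Col), 19.8% of 242 (Col x Cvi) and 23.0% of 296 (Ler x Cvi). None of these differences was called. In the endosperm this DRM2 window had 8.5% of 153 calls methylated in Cvi x Cvi and 6.67% of 60 in Ler x Ler.

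SUVH2 encodes one of the paired proteins that bring polymerase V to methylated DNA. Its gene (chr2:14108529-14112464, plus strand, 3936 nt) carries an intron window, 1021 nt from the start (chr2:14109401-14109700), at which Ler was the low strain in CG and CHH. CG methylation was 91.7% of 48 calls in Cvi (Wilson 95% interval 80.4 to 96.7), 3.17% of 63 in Ler (0.875 to 10.9) and 63.7% of 91 in Col (53.5 to 72.9). The adjusted p of Fisher's exact test was 1.37e-21 for Cvi against Ler and 2.06e-14 for Ler against Col.

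CHH methylation followed the same order at that SUVH2 window, with 14.0% of 193 calls in Cvi, 0.633% of 316 in Ler and 9.13% of 471 in Col (adjusted p = 3.74e-08 for Cvi against Ler, Fisher's exact test). The hybrid embryos had 73.8% of 103 CG calls in Cvi x Col, 65.0% of 157 in Col x Cvi and, in Ler x Cvi, 40.2% of 132. Further into SUVH2, Ler was the high strain: at 3421 nt it had 95.2% of 84 CG calls, against 45.8% of 24 in Col. The body averages of 17.7% in Cvi, 9.19% in Ler and 20.2% in Col combine these opposite windows, and SUVH2 was the only one of the 8 bodies in which Cvi was not the lowest.

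SUVH9 encodes the partner of SUVH2. Summed over strain pairs and contexts, SUVH9 had the most called windows of the 8 genes. In CG, 8 were higher and 3 lower in Cvi than in Col of 17, and 7 higher and 2 lower in Ler than in Col of 31. Between Ler and Col alone, NRPE1 had more CG windows called. Upstream of SUVH9 (chr4:7823894-7827004, minus strand, 3111 nt) CG methylation averaged 59.2% in Cvi, 49.9% in Ler and 12.8% in Col, though over only 4 shared windows. The difference from Col was larger than in 99.6% of protein-coding genes for Cvi and in 99.3% for Ler.

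In the SUVH9 window at -346 nt printed above, 80.5% of 41 CG calls were methylated in Cvi (Wilson 95% interval 66.0 to 89.8), 94.1% of 68 in Ler (85.8 to 97.7) and 0 of 156 in Col (up to 1.92%). Fisher's exact test gave adjusted p = 4.7e-28 for Cvi and 5.19e-49 for Ler against Col. The window beside it, at -546 nt, had 59.3% of 27 calls in Cvi, 74.7% of 75 in Ler and 0 of 133 in Col (up to 2.26%). Hybrid embryos with a Col parent were intermediate at -346 nt, at 45.9% of 109 calls in Cvi x Col and 35.1% of 134 in Col x Cvi, while Ler x Cvi, whose parents are both methylated, had 88.6% of 70.

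CHH methylation at the same SUVH9 window was 17.3% of 284 calls in Cvi, 16.6% of 187 in Ler and 0.408% of 490 in Col (adjusted p = 9.81e-18 and 5.98e-14 against Col for Cvi and Ler, Fisher's exact test). The hybrids with Col had less than the mean of their parents, with 1.93% of 467 calls in Cvi x Col (Wilson 95% interval 1.02 to 3.62) and 1.35% of 444 in Col x Cvi (0.621 to 2.92). Ler x Cvi had 7.94% of 340 (5.51 to 11.3), below both of its parents. At the end of the SUVH9 gene, 3054 nt from the start, CHH methylation was 27.3% of 249 calls in Cvi, 7.44% of 215 in Ler and 10.2% of 646 in Col (adjusted p = 1.6e-06 for Cvi against Ler, Fisher's exact test).

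A second block of SUVH9, downstream, showed the same pattern as the upstream one. It covered 5 windows with midpoints from 4254 to 5054 nt, in which CG methylation was 72.2% to 88.9% in Cvi, 84.2% to 96.4% in Ler and 0% to 9.84% in Col. At 4454 nt (chr4:7822401-7822700) the shares were 80.0% of 45 calls in Cvi, 96.4% of 111 in Ler and 1.54% of 65 in Col (adjusted p = 1.31e-17 and 2.03e-39 against Col, Fisher's exact test). The same SUVH9 window had 40.0% of 30 CHG calls in Cvi, 63.9% of 83 in Ler and 0 of 44 in Col (up to 6.82%; adjusted p = 0.00024 and 3.88e-12 against Col, Fisher's exact test).

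Nearer the end of SUVH9 the strains changed places. At 3654 nt CG methylation was 71.4% of 7 calls in Cvi, 0 of 67 in Ler (up to 4.48%) and 93.4% of 76 in Col, and at 3854 nt it was 20.9% of 43 in Cvi, 0 of 72 in Ler (up to 4.17%) and 88.9% of 126 in Col. Both differences between Ler and Col were called. Blocks methylated in Col and blocks unmethylated in Col thus lay within 1 kb of each other beside SUVH9.

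**Figure D4:**
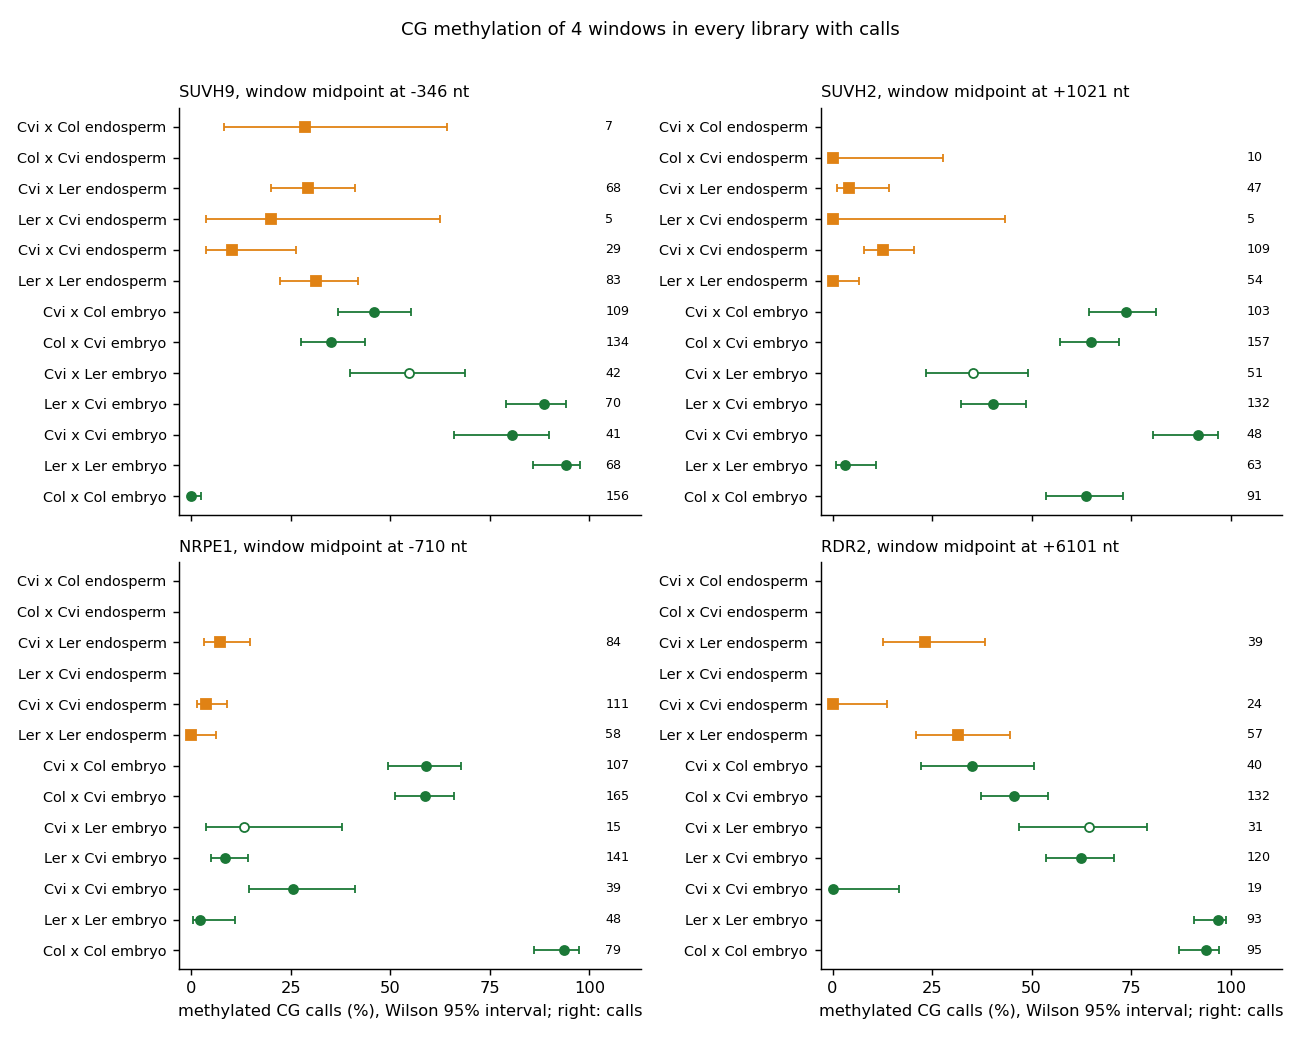
CG methylation (%) with Wilson 95% intervals in each library that has calls at 4 windows, before SUVH9 (-346 nt), within SUVH2 (1021 nt), before NRPE1 (-710 nt) and after RDR2 (6101 nt); squares are endosperm, circles embryo, the open circle the Cvi x Ler embryo with displaced calls, and the number of calls is at the right. Hybrid embryos lie between their selfed parents, except the Cvi x Ler embryo before SUVH9, and no endosperm exceeds the embryo of the same cross at the windows before SUVH9 and within SUVH2.

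Over all CG windows of the 8 genes called between the selfed parents, the hybrid embryos were close to the middle. The position of a hybrid was taken as its level minus that of Cvi, as a percentage of the other parent's level minus that of Cvi, in windows with at least 15 hybrid calls. The median position was 47.6% in Cvi x Col (34 windows, of which 33 were between the parents), 57.6% in Col x Cvi (36 windows, 35 between) and 53.9% in Ler x Cvi (31 windows, 31 between). Over all called nuclear windows these medians were 50.8% in Cvi x Col, 54.1% in Col x Cvi and 53.0% in Ler x Cvi. In the Cvi x Ler embryo, with displaced calls, it was 23.2% over 17 windows, against 37.1% over all windows.

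Few windows were called between the reciprocal embryos of Cvi and Col. Cvi x Col was higher than Col x Cvi at 2 and lower at 1 of 248 CG windows of the 8 genes (0.577% of all windows were called), at none of 296 in CHG (0.0486%) and lower at 1 of 345 in CHH (1.09%). Besides the AGO4 window, the CG calls were 1 window in NRPD1 (87.5% of 16 calls in Cvi x Col, 28.0% of 75 in Col x Cvi) and 1 in RDR2 (13.0% of 23 calls in Cvi x Col, 58.1% of 117 in Col x Cvi). The CHH call was the SUVH9 window at 3054 nt, with 11.3% of 468 calls in Cvi x Col and 22.5% of 436 in Col x Cvi (adjusted p = 0.000809, Fisher's exact test). Between the Cvi x Ler and Ler x Cvi embryos 4 CG windows were higher and 31 lower of 188, where 12.7% of all windows were called (6.21% higher, 6.52% lower). The same pair had 3 CHG windows higher and 1 lower of 234 (3.94% of all windows, 1.97% higher and 1.98% lower) and 9 CHH windows higher and 1 lower of 326 (3.44%, 1.79% higher and 1.66% lower). These rest on the library with displaced calls and cannot be given without it.

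Endosperm was compared with embryo within each cross. In both selfed crosses that could be tested, the endosperm was lower than the embryo at CG windows upstream of NRPD1, NRPE1, DCL3 and SUVH9. In Ler x Ler, endosperm was lower at 17 and higher at 2 of 128 windows of the 8 genes (14.8% called, against 6.01% of all windows, 5.76% lower and 0.250% higher), and in Cvi x Cvi it was lower at 19 and higher at none of 119 (16.0%, against 7.60%, 7.51% lower and 0.0909% higher). Of the upstream windows, 11 of 41 were lower in Ler x Ler endosperm and 12 of 34 in Cvi x Cvi, where 5.62% and 6.51% of the upstream windows of all protein-coding genes were lower in these crosses. Windows of 1 gene are not independent, and NRPD1 alone held 4 upstream windows that were lower in both crosses. No window upstream of AGO4, DRM2 or SUVH2 was called. Of the downstream windows, 5 of 35 were lower in Ler x Ler and 3 of 32 in Cvi x Cvi (all genes 4.53% and 5.45%). Of body windows, 1 was lower and 2 were higher of 52 in Ler x Ler (all genes 2.01% lower, 0.465% higher), and 4 were lower of 53 in Cvi x Cvi (2.93% lower). With 2 times the call minimum 9 CG windows were called in each of these crosses, of fewer windows tested. The share of all windows called at that minimum was not taken.

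Part of the lower windows coincided. Of the 17 windows lower in Ler x Ler endosperm 12 could be tested in Cvi x Cvi, and of the 19 lower in Cvi x Cvi endosperm 11 could be tested in Ler x Ler. 8 windows were lower in both, 66.7% of the testable Ler x Ler windows and 72.7% of the testable Cvi x Cvi windows. Over all nuclear windows tested in both crosses, 3758 were lower in both, 58.1% of the Ler x Ler windows and 47.2% of the Cvi x Cvi windows, and the members were not tested against these shares. All 8 windows of the members were upstream, 4 at NRPD1, 2 at SUVH9, 1 at DCL3 and 1 at NRPE1. The 2 crosses share no library.

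At NRPD1, CG methylation over 9 upstream windows averaged 24% in Cvi x Cvi endosperm and 64.9% in its embryo, and 18.3% in Ler x Ler endosperm and 63.8% in its embryo. The Ler x Ler fall of 45.5 points was exceeded in 0.848% of protein-coding genes and the Cvi x Cvi fall of 41.0 points in 2.05%. In the window at -761 nt (chr1:23363201-23363500), 23.8% of 63 calls were methylated in Cvi x Cvi endosperm (Wilson 95% interval 15.0 to 35.6) and 100% of 26 in the embryo (87.1 to 100), with adjusted p = 2.94e-10 by Fisher's exact test. Ler x Ler had 32.1% of 53 calls in endosperm and 95.2% of 21 in embryo at the same place.

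The NRPD1 window printed above, at -961 nt, behaved alike, with 51.7% of 116 calls in Cvi x Cvi endosperm and 99.1% of 108 in embryo, and 40.9% of 66 in Ler x Ler endosperm and 96.6% of 59 in embryo. The Cvi x Ler endosperm had 41.1% of 56 calls there. In the Cvi x Cvi body of NRPD1, 2 windows were also lower in endosperm, and its mean was 13.3% in endosperm and 29.6% in embryo over 27 windows. CHH methylation at -561 nt was 0 of 226 calls in Ler x Ler endosperm (up to 1.33%) and 10.4% of 67 in embryo (adjusted p = 0.0012, Fisher's exact test).

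**Figure D5:**
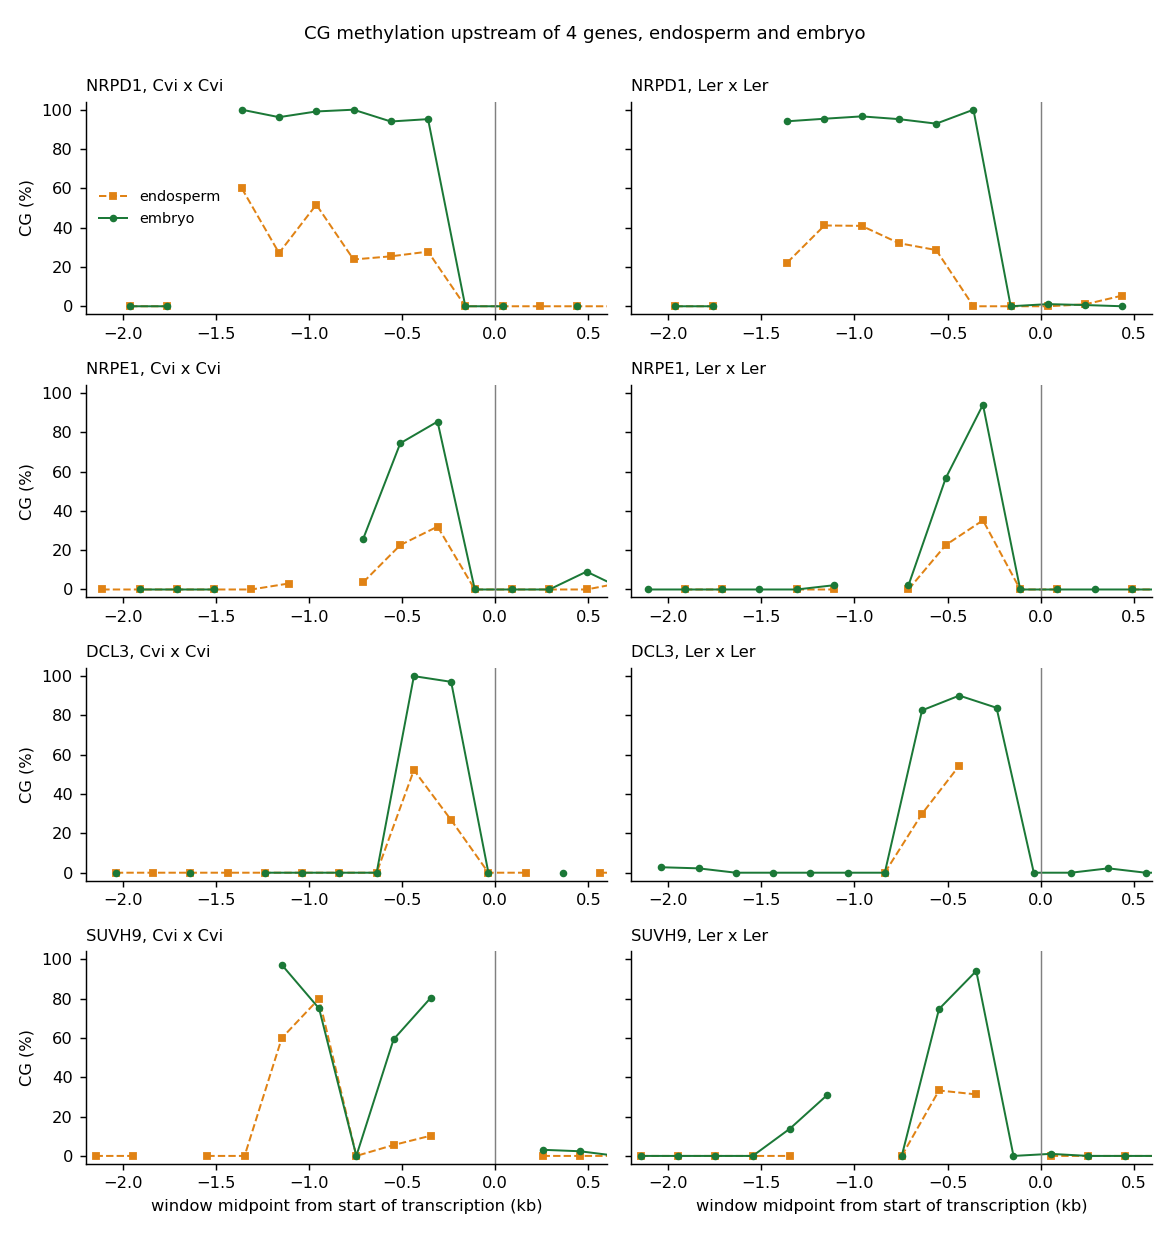
CG methylation (%) of windows around the start of transcription of NRPD1, NRPE1, DCL3 and SUVH9 in endosperm (dashed, squares) and embryo (solid, circles) of Cvi x Cvi (left) and Ler x Ler (right); the x axis is the window midpoint in kb from the start (vertical line). The methylated upstream blocks of the embryos are lower in endosperm, as at NRPD1 where 24% against 64.9% (Cvi x Cvi) and 18.3% against 63.8% (Ler x Ler) were methylated over 9 windows.

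NRPE1 gave the tissue difference that could be followed in most crosses. At -310 nt (chr2:16714001-16714300) CG methylation in endosperm was 32.0% of 194 calls in Cvi x Cvi, 35.2% of 105 in Ler x Ler and 28.1% of 32 in Ler x Cvi, while it was 85.4% of 48 in the Cvi x Cvi embryo, 94.0% of 134 in the Ler x Ler embryo and 94.0% of 266 in the Ler x Cvi embryo. All were called, with adjusted p = 1.17e-09, 3.48e-20 and 2.67e-15 by Fisher's exact test. The Cvi x Col endosperm had 27.3% of 11 calls and its embryo 93.6% of 188, too few in the endosperm for the test.

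2 endosperms did not share the low level at that NRPE1 window. Col x Cvi endosperm had 64.2% of 53 calls methylated (Wilson 95% interval 50.7 to 75.7) and its embryo 92.1% of 391, a difference below the 35-point threshold. Cvi x Ler endosperm had 71.4% of 91 (61.4 to 79.7), against 28.1% of 32 in the reciprocal Ler x Cvi endosperm (15.6 to 45.4), which was called between these endosperms (adjusted p = 0.000891, Fisher's exact test). Only 2 windows could be tested in that pair in CG at the 8 genes, where 3.90% of all windows tested were called. The other, at -510 nt, was not called, with 32.9% of 76 calls methylated in Cvi x Ler endosperm and 31.8% of 22 in Ler x Cvi. At that window NRPE1 had 85.7% of 14 calls in Col x Cvi endosperm and 27.3% of 11 in Cvi x Col, with no test at these depths.

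In DCL3, the window at -237 nt (chr3:15753001-15753300) had 26.8% of 56 CG calls methylated in Cvi x Cvi endosperm and 97.1% of 34 in embryo (adjusted p = 6e-10, Fisher's exact test). At -437 nt the values were 52.2% of 23 in Cvi x Cvi endosperm and 100% of 17 in embryo, and 54.5% of 55 in Ler x Ler endosperm and 90.1% of 172 in embryo. The high CHH methylation of Cvi embryos before DCL3 was lower in endosperm too, at 10.1% of 69 calls and 2.83% of 318 at -437 and -237 nt in Cvi x Cvi endosperm, against 47.5% of 61 and 22.2% of 316 in its embryo.

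Before the start of SUVH9 both selfed endosperms were lower than their embryos. At -346 nt (chr4:7827201-7827500) CG methylation was 10.3% of 29 calls in Cvi x Cvi endosperm and 80.5% of 41 in embryo, and 31.3% of 83 in Ler x Ler endosperm and 94.1% of 68 in embryo (adjusted p = 2.06e-07 and 6.64e-14, Fisher's exact test). CHH methylation there was 0 of 241 calls in Cvi x Cvi endosperm (up to 1.24%) and 17.3% of 284 in embryo, and 2.36% of 254 in Ler x Ler endosperm and 16.6% of 187 in embryo. One CHH window across the start of SUVH9 went the other way, at 15.1% of 73 calls in Ler x Ler endosperm against 1.72% of 291 in embryo (adjusted p = 0.000976, Fisher's exact test).

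The largest Cvi x Cvi tissue difference at the 8 genes was inside SUVH2, in the intron window at 1021 nt. CG methylation was 12.8% of 109 calls in endosperm (Wilson 95% interval 7.81 to 20.4) and 91.7% of 48 in embryo (80.4 to 96.7), with adjusted p = 4.09e-19 by Fisher's exact test. CHH methylation fell with it, to 2.18% of 504 calls in endosperm against 14.0% of 193 in embryo. Ler, whose embryo had 3.17% CG methylation at that SUVH2 window, had 0 of 54 calls in endosperm (up to 5.56%).

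RDR2 differed between tissues in Ler x Ler, mostly in its downstream windows. Downstream of the gene 10 shared windows averaged 26.9% in Ler x Ler endosperm and 64.1% in embryo, and at 6101 nt 31.6% of 57 calls were methylated in endosperm and 96.8% of 93 in embryo (adjusted p = 6.42e-16, Fisher's exact test). The 2 windows at which Ler x Ler endosperm was higher than embryo were both in the RDR2 body, with 93.3% of 15 calls in endosperm and 33.3% of 27 in embryo at 1701 nt, and 100% of 23 in endosperm and 53.9% of 89 in embryo at 3901 nt.

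AGO4 and DRM2 had 1 and 0 tissue calls over all crosses and contexts. AGO4 had 1 window lower in Cvi x Cvi endosperm, at 2841 nt (chr2:11539401-11539700), with 3.85% of 26 calls methylated in endosperm and 57.9% of 19 in embryo (adjusted p = 0.00103, Fisher's exact test). No tissue window of DRM2 was called in any cross or context.

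In CHG, 1 window of 173 was called in Ler x Ler (lower in endosperm; 1.85% of all windows called) and none of 151 in Cvi x Cvi (1.95%). In CHH, Ler x Ler had 2 windows lower and 1 higher of 234 (2.26% of all windows, 2.03% lower and 0.227% higher). Cvi x Cvi had 8 CHH windows lower of 210 and none higher (3.21%, 3.04% lower and 0.171% higher), which lay at SUVH9, DCL3 and SUVH2. In Cvi x Ler, endosperm was higher at 4 and lower at 4 of 111 CG windows (10.4%), and the largest difference was at -1899 nt of RDR2, inside AT4G11120, where 0 of 23 calls were methylated in endosperm (up to 13.0%) and 100% of 27 in embryo. This embryo is the library with displaced calls. No second match was found in its RDR2 block. Its profile there still correlated at only 0.343 with the selfed embryos at its own position, against 0.906 for the Ler x Cvi embryo. The Ler x Cvi embryo had 0 of 37 at that RDR2 window (up to 8.11%). In the same cross 3 CHG windows were lower of 154 (4.19% of all windows), and 8 CHH windows were lower and 1 higher of 248 (2.93%). The other hybrid crosses allowed 2 CG windows in Ler x Cvi (both lower, 15.3%), 4 in Cvi x Col (none called, 8.10%) and 7 in Col x Cvi (none called, 11.0%).

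No window of the 8 genes could be tested between Col x Col endosperm and embryo, so the authors' unweighted window means, which carry no calls, are described instead. In CG the Col x Col endosperm has such means for 311463 nuclear windows but counted calls for only 8430. In every other library these numbers were equal. Most of the endosperm means thus come from windows without counted calls, and their depth is not known. Upstream of NRPD1 these means were 13.4% in endosperm and 56.9% in embryo over 8 shared windows. For NRPE1 they were 5.38% in endosperm and 36.1% in embryo upstream (9 windows), and for RDR2 13.3% in endosperm and 61.0% in embryo downstream (6 windows). Other regions had a higher endosperm mean. Downstream of DRM2 it was 100% in endosperm and 68.5% in embryo over 2 windows, in the SUVH9 body 44.4% in endosperm and 33.2% in embryo (9 windows), and in the DRM2 body 34.8% in endosperm and 27.7% in embryo (10 windows). The bodies of AGO4 and RDR2 were higher in endosperm by 1.54 and 1.45 points. Over 309693 nuclear windows the endosperm mean was 19.5% and the embryo mean 27.0%. The SUVH9 upstream region, unmethylated near the gene in Col, had 0% in Col x Col endosperm and 11.2% in embryo over 6 windows.

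27 further genes of the pathway were counted for comparison, among them other Argonautes, chromatin remodellers and subunits of polymerases IV and V. In CG, Cvi was lower than Col at 64 and higher at 12 of their 384 windows, and lower than Ler at 66 and higher at 7 of 376. These were 16.7% lower and 3.12% higher against Col, where all nuclear windows had 8.20% and 1.63%, and 17.6% lower and 1.86% higher against Ler, where all windows had 7.94% and 1.77%. Ler was higher than Col at 66 and lower at 54 of 1041 windows (6.34% and 5.19%, against 4.04% and 4.25% of all windows). In endosperm they were lower than embryo at 25 and higher at 5 of 409 windows in Ler x Ler, and lower at 19 and higher at none of 366 in Cvi x Cvi. The lower share was 6.11% in Ler x Ler, against 5.76% of all windows, and 5.19% in Cvi x Cvi, against 7.51% of all windows.

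The 6 of these genes with the most CG windows called between strains were DCL2, SPT5L, DRD1, RDR6, CLSY1 and DMS3. 5 of them had Cvi as the low strain, for example DRD1, a chromatin remodeller that acts with polymerase V, in whose body a window had 0 of 20 calls methylated in Cvi (up to 15.0%) and 94.0% of 84 in Col. RDR6, an RNA-dependent RNA polymerase of other small RNA pathways, was the exception: a window before it (chr3:18355601-18355900) had 100% of 37 CG calls methylated in Cvi, 8.51% of 47 in Ler and 0 of 109 in Col (up to 2.75%; adjusted p = 4.51e-33 for Cvi against Col, Fisher's exact test).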

How the data were processed

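Bisulfite reads of 14 libraries (7 crosses, 2 tissues, 1 library per group) were processed by the authors. Per the study's methods, reads were checked with FastQC and mapped with Bismark (version: not given in the sources used here). For Col and Cvi libraries the target was TAIR10, and Cvi reads left over were placed on a Cvi-substituted copy. Ler libraries went to a Ler genome and positions were converted to TAIR10. For hybrids the order was TAIR10 or Ler, then the Cvi copy. Duplicates were removed and cytosines with at least 5 reads were kept. Such mapping can miss reads that differ from the genome used, which was not tested here.

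The deposited weighted files give, per 300-nt window, the count of unmethylated and the count of methylated calls and their percent. The deposited window mean files give an unweighted mean percent per window. For the Col x Col endosperm they also cover windows without counted calls, and whether the 5-read minimum holds there is not known. Percentages here are methylated calls over all calls. Windows were joined to TAIR10.1 RefSeq genes, in which NRPD1 and NRPE1 appear as NRPD1A and NRPD1B. Coordinates are 1-based.

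Windows with at least 3 reference cytosines (CG, CHG) or 10 (CHH), and 15 or 50 calls in both libraries, were compared by two-sided Fisher's exact tests, adjusted by Benjamini-Hochberg over all nuclear windows of a pair and context. These minimums stand in for the study's count of informative cytosines, which had to be covered at the same positions in both samples. Positions were not matched here. The libraries of a pair can thus be scored on different cytosines of a window, and the effect of this was not tested. A region level averages the window percentages of those windows that every library compared had, set beside all protein-coding genes. Each window counted equally there, with no call minimum. The code of the test was checked on simulated independent calls, which cannot show its error rate for real calls that share reads. For each gene the text gives the window with the largest called difference between selfed embryos in each context, and between tissues; other windows were chosen after their values were seen. The 6 further genes named have the most CG strain calls. The 8 genes and the longer list were chosen with earlier results of these data known. Analyses used Python 3.11.15, numpy 2.4.6, pandas 2.3.3, scipy 1.17.1 and numba 0.67.0. Alternatives were other call minimums, thresholds, flanks and overlaps, thinning of the deeper library, and the window mean files. Shares by part of the gene over all protein-coding genes count a window near several genes once for each, and were added after the member counts were seen.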

Additional observations from a re-analysis of the deposited data

How the results depend on the processing

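The larger difference threshold moved 13 of 18 counts of called windows at the 8 genes beyond 1.5 times, the window mean files 10 of 18 with 1 more turned, 2 times the call minimum 9 of 21, 1 kb flanks 7 of 18, no call minimum 5 of 18 and the smaller threshold 5 of 21 with 1 more turned. With 2 times the call minimum, CG calls were 14 for Cvi against Col (main 36), 11 for Cvi against Ler (31), 9 for Ler x Ler tissues (19), 9 for Cvi x Cvi tissues (19), 4 for Cvi x Ler tissues (8) and 0 for Cvi x Col against Col x Cvi (3). Calls in CHG for Cvi against Ler were then 1 (2), and CHH calls were 1 for Ler x Ler tissues (3) and 5 for Cvi x Ler tissues (9). With no call minimum, CG calls were 57, 53, 30 and 19 for Cvi against Col, Cvi against Ler, Ler x Ler tissues and Cvi x Ler tissues, and 0 in CHG for Ler x Ler tissues (1).

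With the smaller threshold (20 points, CHH 5), CHG calls were 5 for Cvi against Col (3), 6 for Ler against Col (3) and 2 for Ler x Ler tissues (1). CG calls were 13 for Cvi x Ler tissues, CHH calls were 12 for Ler against Col (4), and for Cvi x Col against Col x Cvi 3 CHH windows were called, 2 of them higher, where the main rule called 1 lower. With the larger threshold (50 points, CHH 20), CG calls were 27 for Ler against Col (43) and 2 for Cvi x Ler tissues. Calls in CHG were 1 for each strain pair and for Cvi x Ler tissues, and 0 for Ler x Ler tissues. Calls in CHH were 1 for Cvi against Col (10), 1 for Cvi against Ler (7), 0 for Ler against Col, 0 for Ler x Ler tissues, 1 for Cvi x Cvi tissues (8) and 2 for Cvi x Ler tissues.

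With 1 kb flanks, CHG calls were 1, 0 and 1 for Cvi against Col, Cvi against Ler and Ler against Col and 0 for Ler x Ler and for Cvi x Ler tissues (3), CG calls were 12 for Ler x Ler tissues, and CHH calls 3 for Cvi x Ler tissues. By window midpoint 17 of 18 counts stayed within 1.5 times the main one, and Cvi against Ler had 1 CHG call. After thinning, 16 of 18 stayed so, with 0 CHG and 1 CHH call for Ler x Ler tissues. Window mean files, by threshold alone, gave 65, 72, 59, 40 and 37 CG windows for Cvi against Col, Cvi against Ler, Ler x Ler, Cvi x Cvi and Cvi x Ler tissues, with 8, 4, 3, 3 and 5 in CHG. Of the 4 in CHG for Cvi against Ler 3 were higher, the reverse of the main 2 lower, and CHH gave 5 for Ler x Ler tissues. The causes were not tested.

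Of 16 gene regions whose strain means span at least 10 points, the highest and lowest strain were unchanged in 12 with summed calls, 12 with the call minimum, 16 with window mean files and 14 with each library's own windows. Single CG region means could move far. The largest shifts were 30.7, 76.6, 3.08 and 28.6 points in the same order, and the median shifts 2.77, 3.84, 0.284 and 1.02 points. No paired analysis was possible because each group holds 1 library and the labels give no replicate numbers, and no replicate could be left out for the same reason. The Cvi embryo and the shallow endosperms limit which windows can be tested, so a window without a call there was not shown to be equal.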
